A study of Homo sapiens with 9 samples.

Results

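The BCL2 family sets whether a stressed cell keeps its mitochondria intact or undergoes apoptosis, and 10 of its genes were followed here by their symbols among the 60683 genes of the count table. They were the anti-apoptotic genes BCL2, BCL2L1 and MCL1, the effectors BAX and BAK1, and the BH3-only genes BBC3, PMAIP1, BCL2L11, BID and BAD. All 10 were among the 22672 genes tested, those whose counts summed to at least 10. RNA was sequenced from Hep3B cells, a human liver cancer line, after 24 hours with vehicle (DMSO) at 20% O2, vehicle (DMSO) at 1% O2 or the HIF inhibitor 32-134D at 1% O2, with 3 biological replicates in each group. No library combined 32-134D with 20% O2, the labels gave no dose, and all results come from 1 cell line. The libraries held 6013980 to 40549699 counts, and replicates of a group differed by more than counting error. Replicate 3 of 32-134D stood apart from replicates 1 and 2 for several genes below, and some values are also given without it.

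Anti-apoptotic proteins of this family hold the effectors BAX and BAK in check at the outer mitochondrial membrane. BH3-only proteins report stress, by occupying the anti-apoptotic proteins or by activating the effectors, and once BAX or BAK form pores, cytochrome c leaves the mitochondria and caspases are activated. Hepatocytes depend on BCL-XL (the main product of BCL2L1) and MCL1 for survival. Several family genes are controlled by transcription, BBC3 and PMAIP1 by stress factors such as ATF4 and CHOP, and BCL2L11 by FOXO3.

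The sequences before the start sites of 4 members are shown. They are PMAIP1, BBC3 and BAK1, which had the largest hypoxic increases, and BAX, which was not called in any comparison. BCL2L1, the only member called lower in hypoxia, is not among them. Each window runs from 250 bases before to 50 bases after the RefSeq start in GRCh38.p14, and capitals mark matches on either strand to ACGTG or GCGTG, the core letters that HIF recognizes, with their flanking base where matches on both strands overlap.
PMAIP1 (chr18:59899746-59900045, + strand): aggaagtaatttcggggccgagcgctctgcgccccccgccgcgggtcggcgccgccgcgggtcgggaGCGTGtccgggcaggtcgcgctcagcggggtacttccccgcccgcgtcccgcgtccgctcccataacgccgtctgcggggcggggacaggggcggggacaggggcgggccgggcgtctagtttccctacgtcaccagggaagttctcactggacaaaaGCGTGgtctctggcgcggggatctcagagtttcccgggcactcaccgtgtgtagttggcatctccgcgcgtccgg
BBC3 (chr19:47232618-47232917, - strand): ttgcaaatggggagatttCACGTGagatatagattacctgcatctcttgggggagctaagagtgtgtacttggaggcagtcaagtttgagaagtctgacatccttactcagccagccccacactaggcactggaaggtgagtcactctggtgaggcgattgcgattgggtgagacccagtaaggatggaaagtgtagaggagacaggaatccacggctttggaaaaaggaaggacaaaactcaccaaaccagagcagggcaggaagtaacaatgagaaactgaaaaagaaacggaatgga
BAK1 (chr6:33580227-33580526, - strand): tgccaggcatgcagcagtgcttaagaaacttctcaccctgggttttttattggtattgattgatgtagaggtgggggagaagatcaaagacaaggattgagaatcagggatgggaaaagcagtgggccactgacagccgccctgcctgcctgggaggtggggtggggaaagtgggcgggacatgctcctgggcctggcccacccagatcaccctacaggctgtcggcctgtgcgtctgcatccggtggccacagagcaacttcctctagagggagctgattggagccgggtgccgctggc
BAX (chr19:48954625-48954924, + strand): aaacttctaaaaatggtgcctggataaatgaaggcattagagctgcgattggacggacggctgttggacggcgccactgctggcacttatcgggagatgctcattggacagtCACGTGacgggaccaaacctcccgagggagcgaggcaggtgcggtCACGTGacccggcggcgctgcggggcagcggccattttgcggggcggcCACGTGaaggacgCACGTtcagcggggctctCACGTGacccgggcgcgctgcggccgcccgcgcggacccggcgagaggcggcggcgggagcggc
BAX had 9 matches to ACGTG, counting both strands of the overlapping palindrome CACGTG, while BAK1 had none to either motif. BBC3 had 2, which are the 2 strands of a single CACGTG starting at position -232, and PMAIP1 had 2 matches to GCGTG, at -183 and -25. A match to TGACG, the core of sites for ATF and CREB factors, lay at -55 in PMAIP1, and BAX held 1 as well. Over the 9 members found in the RefSeq table (15 windows), 11 windows of 7 members held ACGTG or GCGTG (BCL2 and BAK1 had none, and windows of BID and of BAD overlap, so that some matches are counted in more than 1 window), and 48.4% of all 35116 windows of this length did (21.4% held ACGTG, 36.5% held GCGTG and 24.6% held TGACG). A match is a description of the letters and was not tested as a binding site.

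The treatment was checked with CA9 and EPO, targets of HIF that are not members. CA9 rose in hypoxia by a log2 fold change of 4.38 (edgeR FDR 1.14e-12) and fell with 32-134D by 3.36 on the log2 scale (edgeR FDR 2.98e-11), and EPO rose by 3.82 and fell by 3.35. ARHGEF39 shares 38.5% of the exon length of CA9 on the opposite strand. All 10 liver markers had counts above 3 in every library, but they moved with the groups. APOB and AFP fell by 3.47 and 0.69 in hypoxia on the log2 scale, and with 32-134D APOB rose by 3.12 while TTR, FGB and TF fell by 0.92, 0.98 and 0.80. Replicate 3 of 32-134D was far below replicates 1 and 2 for these 3, with 9.79 CPM against 37.9 and 34.5 for TTR, 6.86 against 33.5 and 33.1 for FGB and 584 against 1545 and 1505 for TF. Of 8 markers of immune, endothelial and mesenchymal cells, CD3E, VWF and ACTA2 had 0 counts in every library, and the summed level of the 8 was 32.1 to 37.7 CPM in vehicle at 20% O2, 11.9 to 13.8 CPM in vehicle at 1% O2 and 24.1 to 28.0 CPM with 32-134D. Most of this sum was LYZ, with group means of 27.2, 8.62 and 17.5 CPM in the same order, while PTPRC had at most 3 counts in a library. The part of either set of markers in the results below was not tested. Levels are given in CPM, counts relative to the size of their library after TMM scaling, which sets the libraries to a common level from the bulk of genes.

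Hypoxia increased 5 of the 10 members and decreased 1. MCL1, BAK1, BBC3, PMAIP1 and BAD rose, BCL2L1 fell, and BCL2, BAX, BCL2L11 and BID were not called, where a call needed a false discovery rate (FDR) below 0.05 in edgeR's quasi-likelihood test and a fold change above 1.5. Log2 fold changes are given with their standard error (SE). Over all genes tested, 39.7% were called in this comparison, 19.5% higher and 20.3% lower. The libraries of the groups did not overlap for 6 members that were higher and 1 that was lower at 1% O2, and 60.5% of all genes had no overlap (32.3% higher, 28.1% lower). The median log2 fold change was 0.64 over the members and 0.0010 over all genes tested. With 32-134D, 5 members fell against vehicle at 1% O2 and 0 rose, with 29.9% of all genes called (16.2% higher, 13.7% lower). MCL1, BAK1, BBC3, PMAIP1 and BAD were the 5, and the vehicle libraries at 1% O2 serve both comparisons. With 32-134D, 1 member was higher and 6 were lower without overlap, against 56.1% of all genes (25.4% higher, 30.8% lower), and the median was -0.39 against -0.012 over all genes. Scaled by total library size instead of TMM, which moved the median of all genes to -0.21 in hypoxia and 0.17 with 32-134D, 1 member was called lower and 1 higher with 32-134D, and 34.5% of all calls in hypoxia and 72% with 32-134D were higher, in place of 49.0% and 54.2%. Between 32-134D and vehicle at 20% O2, 1 member was called, and for 4 members the 32-134D libraries were higher without overlap and for 2 they were lower, with 29.8% of all genes not overlapping (17% higher, 12.8% lower).

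**Figure D1:**
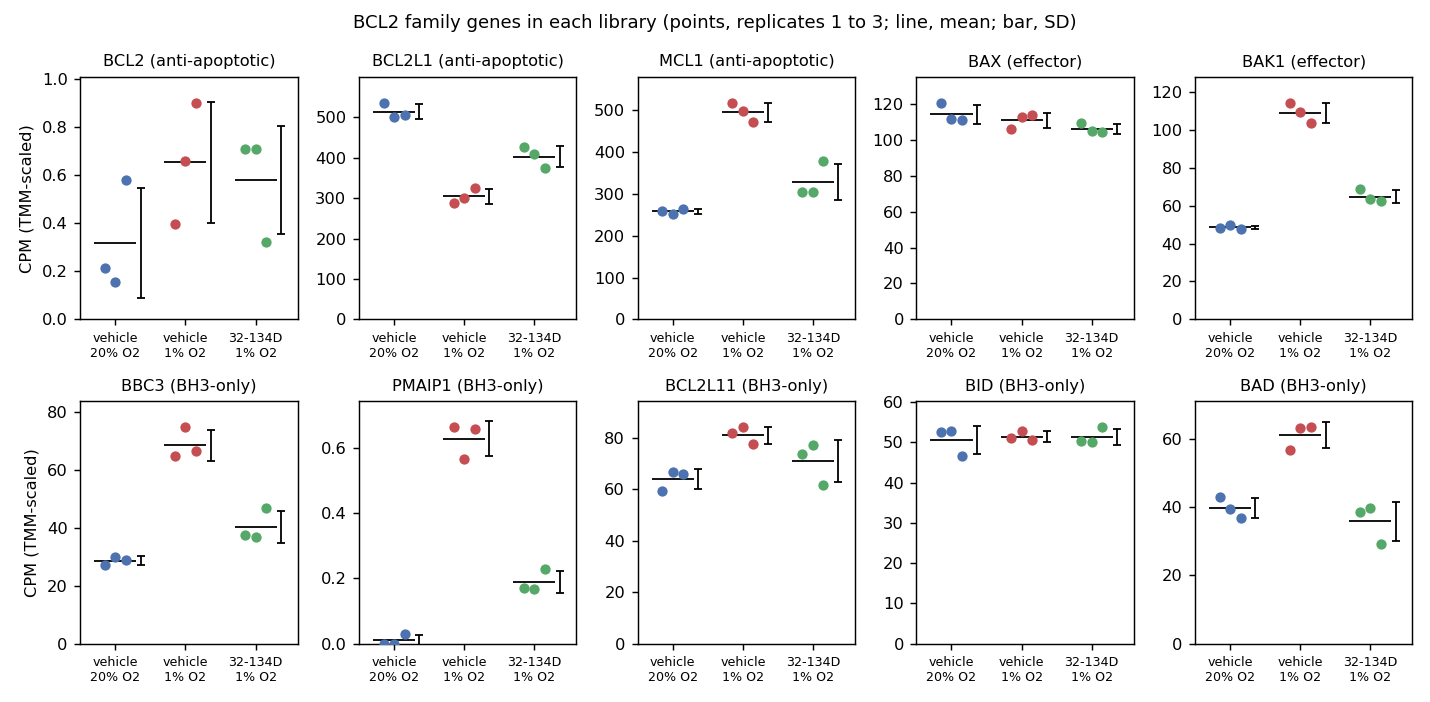
Level of each of the 10 genes in CPM (y axes, each starting at 0, with its own scale) in the 9 libraries. Points are replicates 1 to 3 from left to right, lines are group means and bars are the SD. For BAK1 and BBC3 the 3 points of vehicle at 1% O2 lie above all others, and for BCL2L1 they lie below all others.

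Among the anti-apoptotic genes, MCL1 and BCL2L1 moved in opposite directions. BCL2L1 (ENSG00000171552, chromosome 20, 31664452 to 31723989 in GRCh38) encodes BCL-XL and, in a shorter spliced form that gene counts do not separate, the pro-apoptotic BCL-XS. Its levels were 536, 501 and 506 CPM in replicates 1, 2 and 3 of vehicle at 20% O2, 289, 299.9 and 326 CPM in vehicle at 1% O2 and 426, 409 and 374 CPM with 32-134D. The 3 groups did not overlap, with the hypoxic vehicle libraries lowest and the 32-134D libraries between. BCL2L1 fell in hypoxia, with a log2 fold change of -0.75 (SE 0.074, edgeR FDR 6.08e-07), which is 0.593 of the level at 20% O2. With 32-134D its log2 fold change was 0.40 (SE 0.074, edgeR FDR 0.000349), under the fold threshold, and against vehicle at 20% O2 it was -0.35 (SE 0.074, edgeR FDR 0.00724). The antisense gene ABALON shares 43.0% of the exon length of BCL2L1 but held 328 counts in all, or 0.367% of the 89348 counts of BCL2L1.

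MCL1 (ENSG00000143384, chromosome 1, 150574551 to 150579738) encodes a short-lived guardian that binds BAK, BIM and NOXA. It had 258, 251 and 264 CPM in vehicle at 20% O2, 517, 497 and 472 CPM in vehicle at 1% O2 and 304, 305 and 379 CPM with 32-134D. All hypoxic vehicle libraries were higher than every other library, and replicate 3 of 32-134D lay above replicates 1 and 2. MCL1 rose 1.92-fold in hypoxia, a log2 fold change of 0.94 (SE 0.086, edgeR FDR 2.99e-07). With 32-134D it had a log2 fold change of -0.59 and so fell (SE 0.085, edgeR FDR 4.54e-05), only just past the fold threshold of 0.58. The FDR stayed at 0.00139 or lower in the 19 alternatives, but the call was lost in 13 of them. These include the stricter fold threshold of 2, where the value itself did not change. With DESeq2 the log2 fold change was -0.53. Leaving out single libraries gave -0.70 to -0.48. It was under the threshold without replicate 1 of vehicle at 20% O2, any replicate of vehicle at 1% O2, or replicate 1 or 2 of 32-134D, and it was -0.70 without replicate 3 of 32-134D. Against vehicle at 20% O2, MCL1 with 32-134D had a log2 fold change of 0.35 (edgeR FDR 0.0176), under the fold threshold.

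The order of these 2 genes changed with the condition. Compared per length of exon, BCL2L1 had 155 ± 5.63 CPM per kb in vehicle at 20% O2 and MCL1 had 59.0 ± 1.49 (SD, n = 3). In vehicle at 1% O2, MCL1 had 113 ± 5.16 CPM per kb and BCL2L1 had 92.0 ± 5.64, and with 32-134D the values were 75.3 ± 9.82 and 122 ± 8.03 (SD, n = 3). A ratio within a library does not depend on scaling between libraries, and the ratio of MCL1 to BCL2L1 per kb, chosen after its values were seen, is given without a test. It was 0.365, 0.380 and 0.396 in replicates 1, 2 and 3 of vehicle at 20% O2, 1.35, 1.26 and 1.10 in vehicle at 1% O2 and 0.541, 0.565 and 0.768 with 32-134D. All 3 hypoxic vehicle libraries were above 1 and the other 6 were below, and replicate 3 of 32-134D was the highest of these 6. The split at 1 depends on the exon lengths, since without division by length the ratio in that replicate was 1.01, against 1.45 to 1.79 in the hypoxic vehicle libraries.

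**Figure D2:**
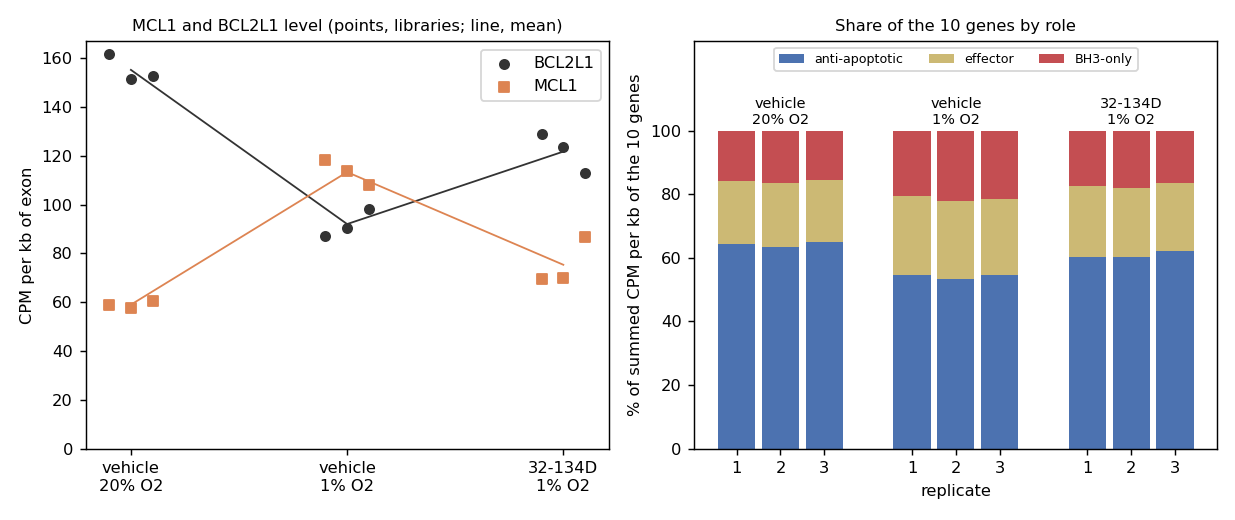
Left, levels of BCL2L1 and MCL1 in CPM per kb of exon (y axis) in each library of the 3 groups (x axis), with lines through the group means, which cross so that MCL1 is above BCL2L1 only in vehicle at 1% O2. Right, share of the summed CPM per kb of the 10 genes (y axis, %) held by each role in each library, where the anti-apoptotic share is 64.2% on average in vehicle at 20% O2, 54.2% in vehicle at 1% O2 and 61.0% with 32-134D.

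BCL2 itself (ENSG00000171791, chromosome 18, 63123346 to 63320128), the gene that gave the family its name, was barely detected. Its counts were 3, 1 and 19 in vehicle at 20% O2, 15, 14 and 26 in vehicle at 1% O2 and 25, 21 and 7 with 32-134D, and its levels ran from 0.157 to 0.899 CPM. The groups overlapped. The ratio of summed counts scaled to library size was 1.45 in hypoxia (95% interval 0.875 to 2.47) and 0.975 with 32-134D (0.656 to 1.45), where the exact interval covers counting error only. A difference was not detectable at this depth, with FDR 0.283 and 0.868 from edgeR. Thinning every library to the smallest total turned both directions, to log2 fold changes of -1.02 and 1.38.

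Of the 2 effectors, BAK1 was called in hypoxia and with 32-134D, and BAX was not. BAX (ENSG00000087088, chromosome 19, 48954815 to 48961798), which moves from the cytosol to mitochondria when activated, had 120.4, 111 and 111 CPM in vehicle at 20% O2, 106, 113 and 114 CPM in vehicle at 1% O2 and 109, 105 and 104 CPM with 32-134D. The 9 libraries lay between 104 and 120.4 CPM, with log2 fold changes of -0.042 in hypoxia (SE 0.068, edgeR FDR 0.63) and -0.064 with 32-134D (SE 0.068, edgeR FDR 0.469). BAK1 (ENSG00000030110, chromosome 6, 33572547 to 33580293), whose product is resident in the outer mitochondrial membrane, had 48.2, 49.6 and 47.7 CPM in vehicle at 20% O2, 114, 109 and 103 CPM in vehicle at 1% O2 and 68.6, 63.3 and 62.3 CPM with 32-134D. No group overlapped another. BAK1 rose 2.25-fold in hypoxia, a log2 fold change of 1.17 (SE 0.074, edgeR FDR 5.93e-09), and fell by 0.75 with 32-134D (SE 0.071, edgeR FDR 7.92e-07). Against vehicle at 20% O2, BAK1 with 32-134D had a log2 fold change of 0.42 (edgeR FDR 0.00204), under the fold threshold. Scaled by total library size, BAK1 was 0.96 in hypoxia and -0.56 with 32-134D, the latter under the fold threshold, and BAX was -0.26 and 0.12, a change of sign for 32-134D. The ratio of BAK1 to BAX per kb within a library, chosen after its values were seen and not tested, was 0.468, 0.522 and 0.504 in vehicle at 20% O2, 1.26, 1.13 and 1.06 in vehicle at 1% O2 and 0.734, 0.707 and 0.700 with 32-134D. BAK1 thus exceeded BAX per kb in the 3 hypoxic vehicle libraries and in none of the other 6, which depends on the exon lengths, since the ratios of counts in the hypoxic vehicle libraries were 1.07, 0.968 and 0.910.

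Among the BH3-only genes, BBC3, PMAIP1 and BAD rose in hypoxia and fell with 32-134D, and BCL2L11 and BID were not called. BBC3 (ENSG00000105327, chromosome 19, 47220822 to 47232766) encodes PUMA, which binds all anti-apoptotic members. It had 27.2, 30.1 and 28.9 CPM in vehicle at 20% O2, 64.8, 74.8 and 66.5 CPM in vehicle at 1% O2 and 37.7, 37.0 and 46.8 CPM with 32-134D. The 3 groups did not overlap, although replicate 3 of 32-134D was higher than replicates 1 and 2. BBC3 rose 2.40-fold in hypoxia, a log2 fold change of 1.26 (SE 0.10, edgeR FDR 8.42e-08), and fell by 0.76 with 32-134D (SE 0.098, edgeR FDR 1.41e-05). With single libraries left out, these values were 1.17 to 1.30 and -0.88 to -0.64, and the second was -0.88 without replicate 3 of 32-134D. Against vehicle at 20% O2 the value was 0.50 (edgeR FDR 0.00662), under the fold threshold.

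PMAIP1 (ENSG00000141682, chromosome 18, 59899948 to 59904306) encodes NOXA, which binds MCL1 and promotes its degradation. It was a rare transcript in these cells, with counts of 0, 0 and 1 in vehicle at 20% O2, 25, 12 and 19 in vehicle at 1% O2 and 6, 5 and 5 with 32-134D. In CPM the hypoxic vehicle libraries had 0.663, 0.566 and 0.657 and the 32-134D libraries had 0.170, 0.168 and 0.229, and the groups did not overlap. The scaled ratio of summed counts was 33.9 in hypoxia (95% counting interval 5.84 to 1363, 56 counts against 1) and 0.289 with 32-134D (0.155 to 0.511, 16 against 56). The difference was called in both comparisons (edgeR FDR 3.71e-05 and 0.0023). The call with 32-134D was lost in 1 of 18 alternatives. PMAIP1 was also the 1 member called between 32-134D and vehicle at 20% O2 (edgeR FDR 0.0372), where 3.52% of all genes were called (3% higher, 0.516% lower). Its ratio there was 9.80 (1.52 to 411, 16 counts against 1), and the call was lost in 11 of 17 alternatives, among them those that left out replicate 1 of vehicle at 1% O2 or any replicate of the 2 groups compared.

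BAD (ENSG00000002330, chromosome 11, 64269830 to 64284704), which in its unphosphorylated form binds BCL-XL and BCL2, had 42.9, 39.6 and 36.8 CPM in vehicle at 20% O2, 56.7, 63.2 and 63.4 CPM in vehicle at 1% O2 and 38.5, 39.9 and 29.1 CPM with 32-134D. The hypoxic vehicle libraries were highest, the other groups overlapped, and replicate 3 of 32-134D was the lowest of all 9. BAD rose by 0.62 on the log2 scale in hypoxia (SE 0.11, edgeR FDR 0.00023), close to the fold threshold. That call was lost in 9 of 19 alternatives, among them the stricter fold threshold of 2. With 32-134D BAD fell by 0.77 (SE 0.11, edgeR FDR 3.85e-05), or by 0.64 without replicate 3 of 32-134D. The hypoxic change was under the fold threshold without replicate 3 of vehicle at 20% O2, or without replicate 1 or 2 of 32-134D, which share the fit. The gene GPR137 covers 404 bases, or 23.7%, of the exon length of BAD on the opposite strand and held 17470 counts against 10550 for BAD. The strand setting of the counting is not given in the sources used here, so reads from the shared bases cannot be assigned with certainty. GPR137 had log2 fold changes of 0.88 in hypoxia and -0.98 with 32-134D.

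BCL2L11 (ENSG00000153094, chromosome 2, 111119378 to 111168447), which encodes BIM, had 59.4, 66.6 and 65.8 CPM in vehicle at 20% O2, 81.7, 84.0 and 77.4 CPM in vehicle at 1% O2 and 73.9, 77.2 and 61.7 CPM with 32-134D. Its hypoxic libraries were above those at 20% O2, with a log2 fold change of 0.34 (SE 0.089, edgeR FDR 0.00448) that was under the fold threshold, and with 32-134D the value was -0.19 (SE 0.087, edgeR FDR 0.0882). Replicate 3 of 32-134D was the lowest of its group, and without it the value was -0.10 (edgeR FDR 0.28). The long noncoding gene MIR4435-2HG overlaps 10.9% of its exon length on the opposite strand, with 15.5% as many counts. BID (ENSG00000015475, chromosome 22, 17734138 to 17774770), whose product links death receptors to mitochondria after cleavage by caspase 8, had 52.6, 52.8 and 46.6 CPM in vehicle at 20% O2, 51.0, 52.9 and 50.5 CPM in vehicle at 1% O2 and 50.4, 50.1 and 53.7 CPM with 32-134D. These groups overlapped, with log2 fold changes of 0.030 (SE 0.078, edgeR FDR 0.77) and -0.0020 (SE 0.076, edgeR FDR 0.99), and the sign of both depended on the scaling.

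**Figure D3:**
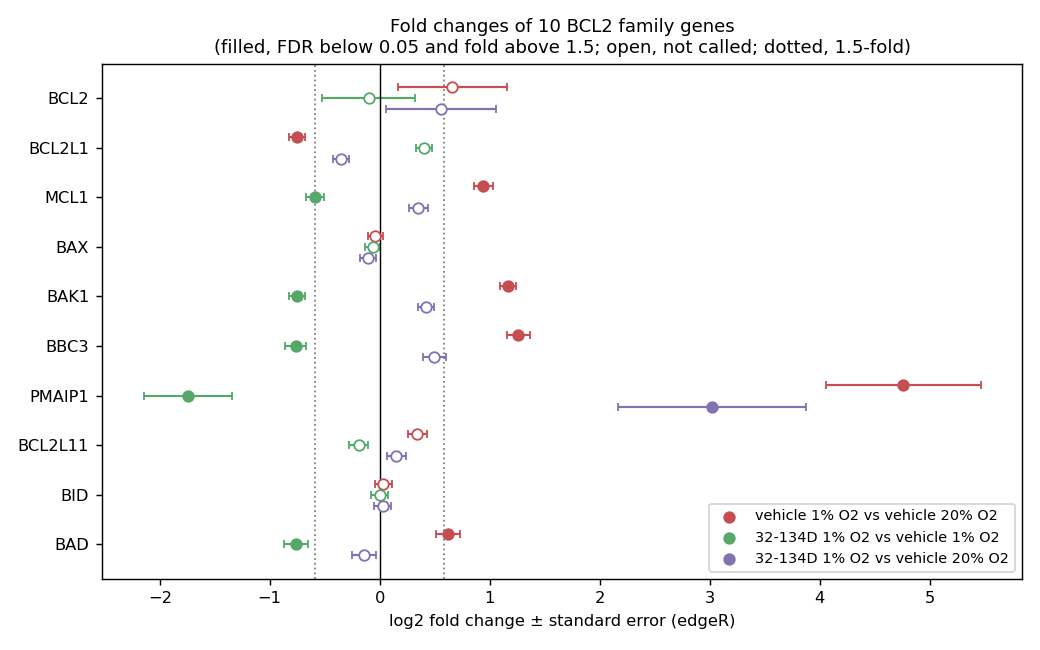
Log2 fold change with its standard error from edgeR (x axis) for each of the 10 genes (y axis) in 3 comparisons. Filled points passed both thresholds and open points did not, and dotted lines mark 1.5-fold. BAK1, BBC3, MCL1, PMAIP1 and BAD lie to the right in hypoxia and to the left with 32-134D, BCL2L1 lies to the left in hypoxia, and the fitted values of PMAIP1 against vehicle at 20% O2 rest on 1 count in that group.

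Per kb of exon, the members ranged from 155 ± 5.63 CPM for BCL2L1 to 0.0269 ± 0.0194 for BCL2 and 1 count in all for PMAIP1 in vehicle at 20% O2 (SD, n = 3). The order in vehicle at 20% O2 was BCL2L1, MCL1, BAX, BAD, BAK1, BID, BCL2L11, BBC3, BCL2 and PMAIP1, and BAD with BAK1, BCL2L11 with BBC3, and BCL2 with PMAIP1 overlapped. In vehicle at 1% O2 it was MCL1, BCL2L1, BAK1, BAX, BAD, BBC3, BCL2L11, BID, PMAIP1 and BCL2, where only BCL2L11 and BID overlapped among neighbours. With 32-134D it was BCL2L1, MCL1, BAX, BAK1, BAD, BBC3, BID, BCL2L11, PMAIP1 and BCL2, and BBC3, BID and BCL2L11 overlapped with their neighbours. BAK1 went from 21.9 ± 0.447 to 49.3 ± 2.40 and 29.3 ± 1.53 CPM per kb, and BBC3 from 9.03 ± 0.468 to 21.6 ± 1.69 and 12.7 ± 1.73 (SD, n = 3). The 10 genes together had 334 ± 8.50 CPM per kb in vehicle at 20% O2, 379 ± 3.53 in vehicle at 1% O2 and 323 ± 4.52 with 32-134D.

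The share of this sum held by each role differed between the groups. Anti-apoptotic genes held 64.2% ± 0.683 in vehicle at 20% O2, 54.2% ± 0.715 in vehicle at 1% O2 and 61.0% ± 1.02 with 32-134D (SD, n = 3). Effectors held 19.8% ± 0.173, 24.3% ± 0.333 and 21.7% ± 0.528, and BH3-only genes held 16.0% ± 0.543, 21.5% ± 0.823 and 17.3% ± 0.754 (SD, n = 3). For the anti-apoptotic and the effector share, no library of one group lay within the range of another. The BH3-only share covers the members alone and leaves out BMF, BIK and HRK. In the same order of groups, BMF had 55.05 ± 1.91, 34.1 ± 0.658 and 70.6 ± 32.7 CPM per kb (SD, n = 3), opposite in direction to this share. Replicate 3 of 32-134D had 108 for BMF, against 51.7 and 51.8. BIK had 6.31, 2.86 and 5.49 on average, also opposite to this share, and HRK had 0.147, 0.910 and 0.476, in its direction. Each share thus depends on which genes are included, since all are parts of the same sum. With BMF in that sum, the anti-apoptotic and effector shares would be lower in every group, and least so in vehicle at 1% O2. BOK, with 19.7, 18.6 and 20.1 CPM per kb on average, and BCL2L2, with 7.46, 8.53 and 7.92, are left out as well. These shares are of transcripts and say nothing of protein, and they were not tested.

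Ratios within libraries compared 3 pairs of genes, each a pro-apoptotic gene with an anti-apoptotic one. An exact permutation test of 3 libraries against 3 cannot give a two-sided p below 0.1, so none could pass 0.05. BAD to BCL2L1 per kb was 0.155, 0.153 and 0.141 in vehicle at 20% O2, 0.380, 0.409 and 0.378 in vehicle at 1% O2 and 0.175, 0.189 and 0.151 with 32-134D. The hypoxic libraries were above all others, with log2 differences of 1.37 in hypoxia and -1.18 with 32-134D and the smallest possible exact p of 0.1 for each, although the overlap of BAD with GPR137 applies here too. PMAIP1 to MCL1 differed by 2.74 in hypoxia and -1.06 with 32-134D on the log2 scale (exact p 0.1 for each), with 0.5 added to each count, and on counts thinned to the smallest library the first was 1.67. BAX to BCL2 differed by -1.0 in hypoxia (exact p 0.2) and 0.11 with 32-134D (exact p 0.7), with overlapping groups, and on thinned counts these were 1.23 and -1.18.

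Of 13 other genes of the family, 12 were tested and 4 rose and 3 fell in hypoxia, with a median log2 fold change of 0.086, where 39.7% of all genes were called. With 32-134D, 3 rose and 3 fell, where 29.9% of all genes were called. BNIP3 and BNIP3L, targets of HIF whose products mark mitochondria for removal, rose by 3.90 and 3.30 (edgeR FDR 2.84e-12 and 5.69e-12) and fell by 2.92 and 2.54 with 32-134D. The BH3-only gene HRK rose by 2.59 (edgeR FDR 1.70e-05) from 1.51, 0.628 and 0.882 CPM to 7.18, 6.36 and 5.15 CPM, and with 32-134D it had 2.30, 2.32 and 5.17 CPM and fell by 0.97 (edgeR FDR 0.00973), although replicate 3 reached the range of the hypoxic vehicle libraries, and without that replicate it fell by 1.44. That call was lost without replicate 1 of vehicle at 1% O2 or replicate 1 or 2 of 32-134D. BCL2L10, an anti-apoptotic relative with at most 25 counts in a library, named after its value was seen, rose by 1.72 (edgeR FDR 0.0228). BIK, BCL2L14 and BMF went the other way, with -1.12, -0.86 and -0.69 in hypoxia and 0.94, 1.07 and 1.05 with 32-134D, the 3 that rose. BCL2L14, with 7 to 42 counts in a library, lost its hypoxic call without any 1 of the vehicle libraries other than replicate 1 at 1% O2. It lost its call with 32-134D without replicate 2 of 32-134D, and over all alternatives that value went down to 0.33. BCL2A1 was not tested, with at most 1 count in a library. BMF, a BH3-only gene linked to the cytoskeleton, had 288, 305 and 307 CPM in vehicle at 20% O2, 184, 184 and 190.1 CPM in vehicle at 1% O2 and 282, 282 and 591 CPM with 32-134D, so that its increase was 0.60 without replicate 3.

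Downstream of the family, 20 of 21 genes of the caspase cascade and its inhibitors were tested, of which 4 rose and 3 fell in hypoxia (median log2 fold change 0.34) and 3 rose and 4 fell with 32-134D (median -0.21). These 7 of 20 in each comparison are near the 39.7% and 29.9% of all genes called, so the counts are no result about the list. Of the inhibitors of apoptosis, BIRC2, which encodes cIAP1, rose by 1.07 in hypoxia and fell by 0.78 with 32-134D, while BIRC6, BIRC3 and XIAP fell by 1.25, 0.94 and 0.64 in hypoxia and rose by 1.21, 0.83 and 0.86 with 32-134D. XIAP, a direct inhibitor of caspases, rose by 0.59 without replicate 3 of 32-134D. TNFRSF10A, which encodes a receptor of the death ligand TRAIL, rose by 0.97 in hypoxia (edgeR FDR 0.000188), and on thinned counts its value was 0.51 and was not called. TNFRSF10A was not called with 32-134D, at -0.26 (edgeR FDR 0.182), and was higher by 0.71 between 32-134D and vehicle at 20% O2 (edgeR FDR 0.0168). HTRA2, whose product is a mitochondrial protease that opposes inhibitors of apoptosis, rose by 0.90 in hypoxia (edgeR FDR 1.64e-07) and fell by 0.59 with 32-134D (edgeR FDR 1.35e-05), only just past the fold threshold. ENDOG, which encodes a mitochondrial nuclease, fell by 0.62 with 32-134D (edgeR FDR 0.000108), close to the threshold as well. Genes on the opposite strand share 39.2% of the exon length of ENDOG (SPOUT1) and 16.1% and 20.8% of that of HTRA2 (AUP1 and LOXL3), so reads from these bases cannot be assigned with certainty. The count of 4 that fell with 32-134D was 1, BIRC2, with DESeq2, with RLE scaling, with total library size, and without replicate 1 of vehicle at 20% O2 or replicate 3 of vehicle at 1% O2. It was 2 without replicate 2 of vehicle at 1% O2 or without replicate 2 or 3 of 32-134D. FAS was not tested, with 0 counts in every library.

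**Figure D4:**
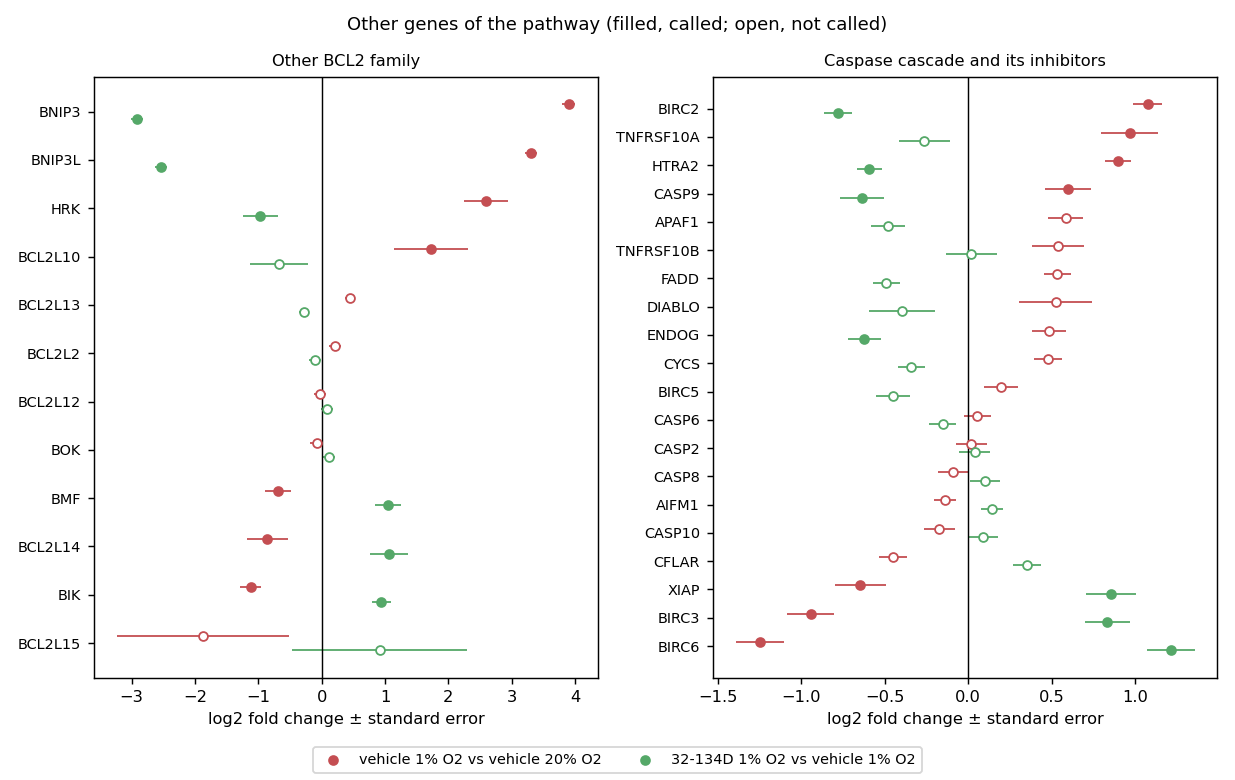
Log2 fold change with its standard error from edgeR (x axes) of the 12 other family genes tested (left) and the 20 genes of the caspase cascade and its inhibitors tested (right), ordered by the hypoxia value. Filled points passed both thresholds. BNIP3 and BNIP3L lie farthest to the right in hypoxia and farthest to the left with 32-134D, and BIRC6 has the lowest hypoxia value among the genes on the right.

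Factors known to control members of the family were examined next. FOXO3 rose by 1.61, DDIT3 (which encodes CHOP) by 2.10 and ATF4 by 2.13 in hypoxia, with FDR 9.71e-10, 7.17e-10 and 4.09e-11 from edgeR, and with 32-134D they fell by 1.09, 1.22 and 1.19. E2F1 rose by 0.65, a call lost without replicate 3 of vehicle at 20% O2, and with 32-134D its value was -0.51 (edgeR FDR 0.000148), under the fold threshold. TP73, which encodes a transcription factor, had log2 fold changes of -0.017 and -0.19 (edgeR FDR 0.928 and 0.249). With 32-134D it had 16.9, 16.9 and 11.8 CPM, and the second value was -0.042 without replicate 3. DDIT3 shares 27.2% of its exon length with MARS on the opposite strand.

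The genes most like the 3 members with the largest hypoxic change were found by the root mean square difference of log2 CPM over the 9 libraries, after each gene was centred on its mean, among 22672 genes. For PMAIP1 they were TBX15 (0.146) and PTPRH (0.147), for BBC3 they were ZFAND5 (0.0696) and POLR3D (0.0705), and for BAK1 they were ATL3 (0.0463) and IGHMBP2 (0.0469). ZFAND5 had log2 fold changes of 1.39 in hypoxia and -0.82 with 32-134D, beside 1.26 and -0.76 for BBC3. TBX15 and PTPRH had 2.95 and 3.06 in hypoxia, beside a fitted 4.76 for PMAIP1, which rests on 1 count at 20% O2. The log2 CPM used here had a prior count of 2, which damps the changes of a gene with counts as low as those of PMAIP1. The likeness rests on differences among 3 conditions and is a description.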

How the data were processed

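The authors deposited raw counts per Ensembl gene for 9 libraries of Hep3B cells. They checked reads with FastQC, trimmed them with Bbduk, mapped them with STAR to GRCh38 and counted them with featureCounts, and strand setting and tool versions are not given in the sources used here. Columns were matched to samples by name, and groups came from the sample titles. Counts were tested with edgeR 4.0.16 in R 4.3.3 (TMM scaling, quasi-likelihood test, 1 fit of 9 libraries, counts summing to at least 10, Benjamini-Hochberg FDR below 0.05 and fold above 1.5), and checked on simulated data. Ratios added 0.5 to each count and used an exact two-sided permutation test. Positions, overlaps and exon lengths came from GENCODE version 29 on GRCh38, and promoter sequences from RefSeq (GRCh38.p14). The authors used another annotation release, so levels, ratios and shares per kb divide counts by lengths from a different gene model. Members and gene lists were chosen with earlier results of these data known. Named genes were the members, 5 regulators, CA9, EPO, genes from the 3 highest and 3 lowest called of each list per comparison, and the 2 genes most like each of 3 members, with exceptions stated beside them. Some genes and 1 gene list are not reported here. Alternatives were DESeq2 1.42.0, RLE scaling, total library size, other filters and fold thresholds, fits of 2 groups, thinning, a block for the replicate number and the omission of each library. The precision is limited by 3 replicates per group and library totals of 6013980 to 40549699 counts.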

Additional observations from a re-analysis of the deposited data

How the results depend on the processing

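The counts of called genes and the ratios within libraries stayed within 1.5 times, or within the spread between replicates, in 272 of 320 recomputations. The cause of the changes that follow was not tested, other than a changed threshold or a smaller set of genes. With DESeq2, 1 of the caspase genes was lower with 32-134D and 0 members were higher between 32-134D and vehicle at 20% O2. With RLE scaling, 1 of the caspase genes was lower with 32-134D. With total library size, 1 of the members was higher with 32-134D, 1 of the members was lower with 32-134D and 1 of the caspase genes was lower with 32-134D. With at least 10 counts required in every library, 3 members were higher in hypoxia, 2 other family genes were higher in hypoxia, 3 members were lower with 32-134D, 1 of the caspase genes was lower with 32-134D and 0 members were higher between 32-134D and vehicle at 20% O2. Without a filter, 0 members were higher between 32-134D and vehicle at 20% O2. With a fold above 2, 3 members were higher in hypoxia, 0 members were lower in hypoxia, 1 of the other family genes was lower in hypoxia, 1 of the caspase genes was higher in hypoxia, 1 of the caspase genes was lower in hypoxia, 1 of the members was lower with 32-134D, 1 of the caspase genes was higher with 32-134D and 0 caspase genes were lower with 32-134D. Without a fold threshold, 9 caspase genes were higher in hypoxia, 1 of the members was higher with 32-134D, 8 caspase genes were lower with 32-134D, 4 members were higher between 32-134D and vehicle at 20% O2 and 1 of the members was lower between 32-134D and vehicle at 20% O2. In fits of the 2 groups compared, 1 of the caspase genes was lower with 32-134D and 0 members were higher between 32-134D and vehicle at 20% O2. On thinned counts, 2 caspase genes were higher in hypoxia, 2 members were lower with 32-134D, 1 of the caspase genes was lower with 32-134D and 0 members were higher between 32-134D and vehicle at 20% O2. On thinned counts the log2 differences of the ratios were 1.23 and -1.18 for BAX to BCL2 in hypoxia and with 32-134D, 1.67 for PMAIP1 to MCL1 in hypoxia and 1.27 for BAD to BCL2L1 in hypoxia. Without 1 library, the counts were 4 to 5 members higher in hypoxia, 1 of the members lower in hypoxia, 3 to 4 other family genes higher in hypoxia, 2 to 3 other family genes lower in hypoxia, 3 to 5 caspase genes higher in hypoxia and 3 to 4 caspase genes lower in hypoxia. They were 0 members higher with 32-134D, 4 to 5 members lower with 32-134D, 2 to 3 other family genes higher with 32-134D, 2 to 3 other family genes lower with 32-134D, 3 caspase genes higher with 32-134D and 1 to 4 caspase genes lower with 32-134D. They were 0 to 1 members higher between 32-134D and vehicle at 20% O2 and 0 members lower between 32-134D and vehicle at 20% O2. The log2 differences of the ratios were -1.45 to -0.76 for BAX to BCL2 in hypoxia, -0.24 to 0.39 for BAX to BCL2 with 32-134D, 2.49 to 3.07 for PMAIP1 to MCL1 in hypoxia, -1.13 to -0.99 for PMAIP1 to MCL1 with 32-134D, 1.33 to 1.40 for BAD to BCL2L1 in hypoxia, -1.26 to -1.09 for BAD to BCL2L1 with 32-134D. The counts of caspase genes lower with 32-134D and of members higher between 32-134D and vehicle at 20% O2 were those that single libraries moved by over 1.5 times. The samples with the same replicate number did not deviate together, with correlations of -0.032 to 0.0052 over the 9 pairs and 0 above 0.1. These correlations gave no sign of pairing by number. With 3 libraries per group and counting error in each gene, they cannot exclude it. With a replicate block, 8671, 6486 and 785 genes were called in hypoxia, with 32-134D and between 32-134D and vehicle at 20% O2, in place of 9007, 6775 and 798, and 0 members were higher in the last, where PMAIP1 had FDR 0.0624 from edgeR. For single genes, 1444 recomputed values kept their direction and call, 129 lost the call, 9 gained one and 32 changed sign, all of the last in genes that were not called. BID in hypoxia, 0.030 as reported, was -0.014 (DESeq2), -0.018 (RLE scaling), -0.18 (total library size), -0.080 (at least 10 counts in every library), -0.12 (thinned counts), -0.033 to 0.058 (leaving out single libraries). BID with 32-134D, -0.0020 as reported, was 0.057 (DESeq2), 0.057 (RLE scaling), 0.19 (total library size), 0.092 (at least 10 counts in every library), 0.059 (2 groups), 0.16 (thinned counts), -0.034 to 0.077 (leaving out single libraries). BCL2 with 32-134D, -0.100 as reported, was 0.087 (total library size), 1.38 (thinned counts), -0.40 to 0.29 (leaving out single libraries). BAX with 32-134D, -0.064 as reported, was 0.12 (total library size), 0.030 (at least 10 counts in every library), -0.095 to 0.020 (leaving out single libraries). TP73 in hypoxia, -0.017 as reported, was 0.012 (no filter), -0.12 to 0.047 (leaving out single libraries). BCL2 in hypoxia, 0.66 as reported, was -1.02 (thinned counts), 0.32 to 1.68 (leaving out single libraries). BID between 32-134D and vehicle at 20% O2, 0.028 as reported, was -0.035 to 0.088 (leaving out single libraries). Among the members, depth limits BCL2 and PMAIP1, with at most 26 counts in a library.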

Other observations

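FAS, the death receptor gene whose signal reaches the BCL2 family through BID, had 0 counts in 230348622 over the 9 libraries, which allows up to 0.013 unscaled CPM (3 counts in all, counting error only). It is one of 11 consecutive protein-coding genes on chromosome 10, from RNLS to CH25H (88273864 to 89207314 in GRCh38), that had at most 1 count in any library and 7 counts in all. The neighbouring gene LIPA had 2925 counts. Of all protein-coding genes, 25.3% had at most 3 counts in every library, and several of the 11 are lipase genes of restricted expression. ACTA2, one of the markers of other cells used here, lies in this run. These genes were named after their values were seen.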
